A study of Mus musculus with 97 samples.

Results

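The aryl hydrocarbon receptor pathway was followed through 6 genes: Ahr, the receptor; Arnt, its DNA-binding partner; Ahrr, a repressor of the receptor; and Tiparp, Cyp1b1 and Cyp1a1, genes that the receptor switches on. They were taken by gene symbol from a table of 20457 genes in whole mouse colon. Rows for 5 of the 6 were used, and Cyp1a1 was not analysed here. Of these 5 genes, 4 (Ahr, Arnt, Ahrr and Tiparp) were among the 17083 genes tested, which needed 1 TPM or more in at least 4 libraries, and Cyp1b1 stayed below that level. Values are given as TPM, a gene's share of a library's transcripts corrected for transcript length. Every log2 difference is on log2(TPM + 1), which makes the differences of weakly expressed genes such as Ahrr look smaller than they are.

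All groups were wild-type C57BL6/J mice aged 8 to 12 weeks, and the tissue of all 97 libraries was whole colon. Mice were given ampicillin (a beta-lactam), metronidazole (a nitroimidazole), neomycin (an aminoglycoside), vancomycin (a glycopeptide), a mix of the 4, or phosphate buffered saline (PBS) as the control. Each dose was 2.5 mg in 100 µl of PBS, given orally (PO), intraperitoneally (IP) or intravenously (IV). Doses came 2 times daily through 3 days with a single final dose on day 4, and colon was collected 4 hours later. The 18 groups hold 6 libraries each, except PBS-IP, Metronidazole-IP, Metronidazole-IV and Vancomycin-IP with 4, and PBS-IV, Neomycin-IV and Vancomycin-IV with 5. What each drug weighed in the mix is not given in the sources used here. Whether each library is a different mouse is not stated, and the p-values describe only the spread among libraries, part of which may be technical. TPM keeps no record of sequencing depth, so the depth is unknown.

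The libraries differed in tissue makeup, and this touches the receptor genes below. The summed level of 12 smooth muscle genes, none at 0 in any library, ran from 4008 to 83190 TPM, and that of 8 surface colonocyte genes from 698.1 to 24110 TPM. In whole tissue, fewer cells of a type and less RNA per cell cannot be told apart. In the deposited table, 12 libraries have columns appended after the ordered ones: 4 of PBS by injection and 8 of vancomycin.

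The receptor protein waits in the cytoplasm in a complex with HSP90, binds small aromatic molecules that include plant compounds and indoles made from tryptophan by gut bacteria, moves to the nucleus and pairs with ARNT. The pair binds DNA at a short core, GCGTG, and raises genes of xenobiotic metabolism. The loop is closed by AHRR, which competes for ARNT, by TIPARP, an enzyme that adds ADP-ribose to the receptor, and by CYP1A1 and CYP1B1, which oxidise ligands. In the intestine the pathway is known for keeping intraepithelial lymphocytes and type 3 innate lymphoid cells, and for limits on epithelial growth.

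RefSeq promoter windows (mouse build GRCm38.p6) were matched for 4 of the 5 genes and not for Ahr, and the 250 bases before the gene start were searched for GCGTG on both strands (read as CACGC on the other strand). The windows of Ahrr, Tiparp and Cyp1b1, the receptor's own feedback and target genes, are shown with each match in capitals; they are Ahrr at chr13:74292332-74292581 (minus strand), Tiparp at chr3:65528197-65528446 (plus strand) and Cyp1b1 at chr17:79715062-79715311 (minus strand), each printed 5′ to 3′ along the gene.
Ahrr: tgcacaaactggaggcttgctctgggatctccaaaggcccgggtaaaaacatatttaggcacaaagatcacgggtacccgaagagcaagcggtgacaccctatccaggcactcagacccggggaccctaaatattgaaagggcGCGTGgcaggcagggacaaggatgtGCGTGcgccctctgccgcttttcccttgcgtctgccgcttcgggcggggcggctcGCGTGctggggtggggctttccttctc
Tiparp: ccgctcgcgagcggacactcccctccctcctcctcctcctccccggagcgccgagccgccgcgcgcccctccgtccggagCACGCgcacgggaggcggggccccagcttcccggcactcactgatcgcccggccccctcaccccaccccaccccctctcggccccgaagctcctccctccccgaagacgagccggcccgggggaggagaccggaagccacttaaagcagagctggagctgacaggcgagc
Cyp1b1: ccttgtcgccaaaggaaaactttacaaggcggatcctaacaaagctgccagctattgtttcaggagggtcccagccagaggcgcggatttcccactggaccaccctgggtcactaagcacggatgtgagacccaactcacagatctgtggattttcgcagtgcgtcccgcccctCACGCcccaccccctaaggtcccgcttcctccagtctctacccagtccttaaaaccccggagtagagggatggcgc
The Ahrr window held 3 matches, 107, 82 and 27 bases before the start. Tiparp held 1 match at 170 bases, Cyp1b1 held 1 at 76 bases, and the window of Arnt at chr3:95434140-95434389 (plus strand) held 1 at 29 bases. Among all 32851 windows of the same length, 28.2% held at least 1 match and 2.77% held 3 or more. The bases G and C made up 60.4% of the Ahrr window, 75.2% of Tiparp, 58% of Cyp1b1 and 57.2% of Arnt. The median over all windows was 52.4%, and the shares above make no allowance for this. A match of these letters is a description of the sequence and not a measured binding site.

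On the TPM scale Arnt was the most abundant of the genes, followed by Ahr, Tiparp, Ahrr and Cyp1b1. Arnt averaged 38.2 ± 7.11 TPM (SD over 97 libraries) and stayed within 24.33 to 60.37. Ahr averaged 20.23 ± 8.71 TPM and ran from 5.98 to 45.96. Tiparp averaged 14.29 ± 3.90 TPM with a range of 6.92 to 26.66. Ahrr was much lower at 2.16 ± 1.68 TPM, from 0.314 to 8.698, and reached 1 TPM in 68 of 97 libraries. Cyp1b1 never reached 1 TPM: its highest value was 0.814, its median 0.2304, and it was listed at 0 in 4 libraries.

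**Figure D1:**
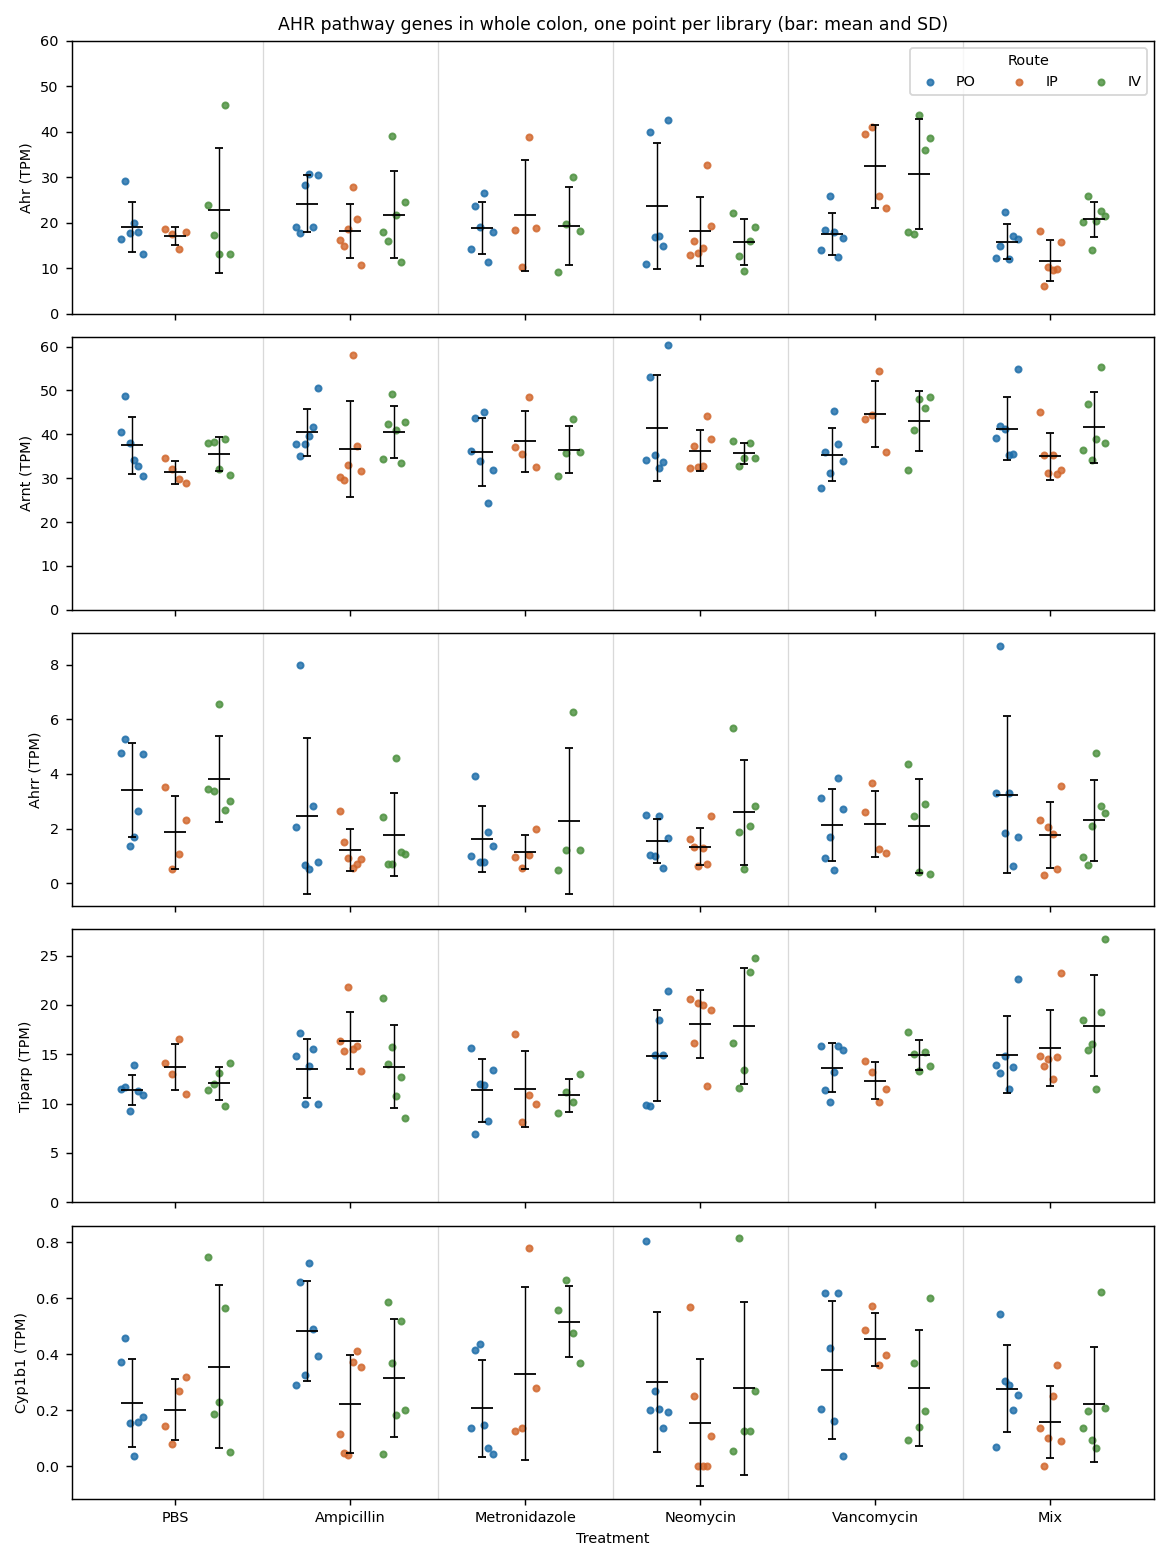
TPM of Ahr, Arnt, Ahrr, Tiparp and Cyp1b1 (vertical axes, linear, 1 panel a gene) by treatment (horizontal axis) and route (colour), with 1 point a library and black bars for the group mean and SD. The highest group means of Ahr are in Vancomycin-IP (32.39) and Vancomycin-IV (30.72), and those of Tiparp in Neomycin-IP (18.04), Mix-IV (17.9) and Neomycin-IV (17.84); Cyp1b1 stays under 1 TPM in every library.

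The genes also differed in how steady they were between libraries of a group. Arnt had a within-group SD of 0.242 on the log2 scale, lower than in most genes, with only 9.61% of tested genes steadier. Tiparp had 0.316, Ahr 0.501 and Ahrr 0.676, against a median of 0.438 over all tested genes.

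Comparison with PBS of the same route asked what each antibiotic does to the pathway, by mouth and by injection. Of 60 pairs of a gene and a comparison (4 genes in 15 comparisons), 1 passed an adjusted p under 0.05 with limma: Arnt was higher in Vancomycin-IP. Over all tested genes, 1.45% of gene and comparison pairs passed the same threshold. By comparison, the share of tested genes called was 0.0702% in Ampicillin-PO, 0.492% in Ampicillin-IP, 0.082% in Ampicillin-IV, 0.0176% in Neomycin-PO, 0.603% in Neomycin-IP and 0.544% in Neomycin-IV. It was 0.176% in Vancomycin-PO, 19% in Vancomycin-IP, 0.258% in Vancomycin-IV, 0.252% in Mix-PO, 0.275% in Mix-IP, and 0% in Mix-IV and in the 3 metronidazole groups. Averaged over the 3 routes, 2 of 20 pairs passed, both of them Tiparp, higher with neomycin and with the mix, where 8.92% of all pairs did so; the share was 0.398% for metronidazole and is given for the other antibiotics with their results. Each p-value is adjusted over the 17083 genes within its comparison and not over the comparisons.

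**Figure D2:**
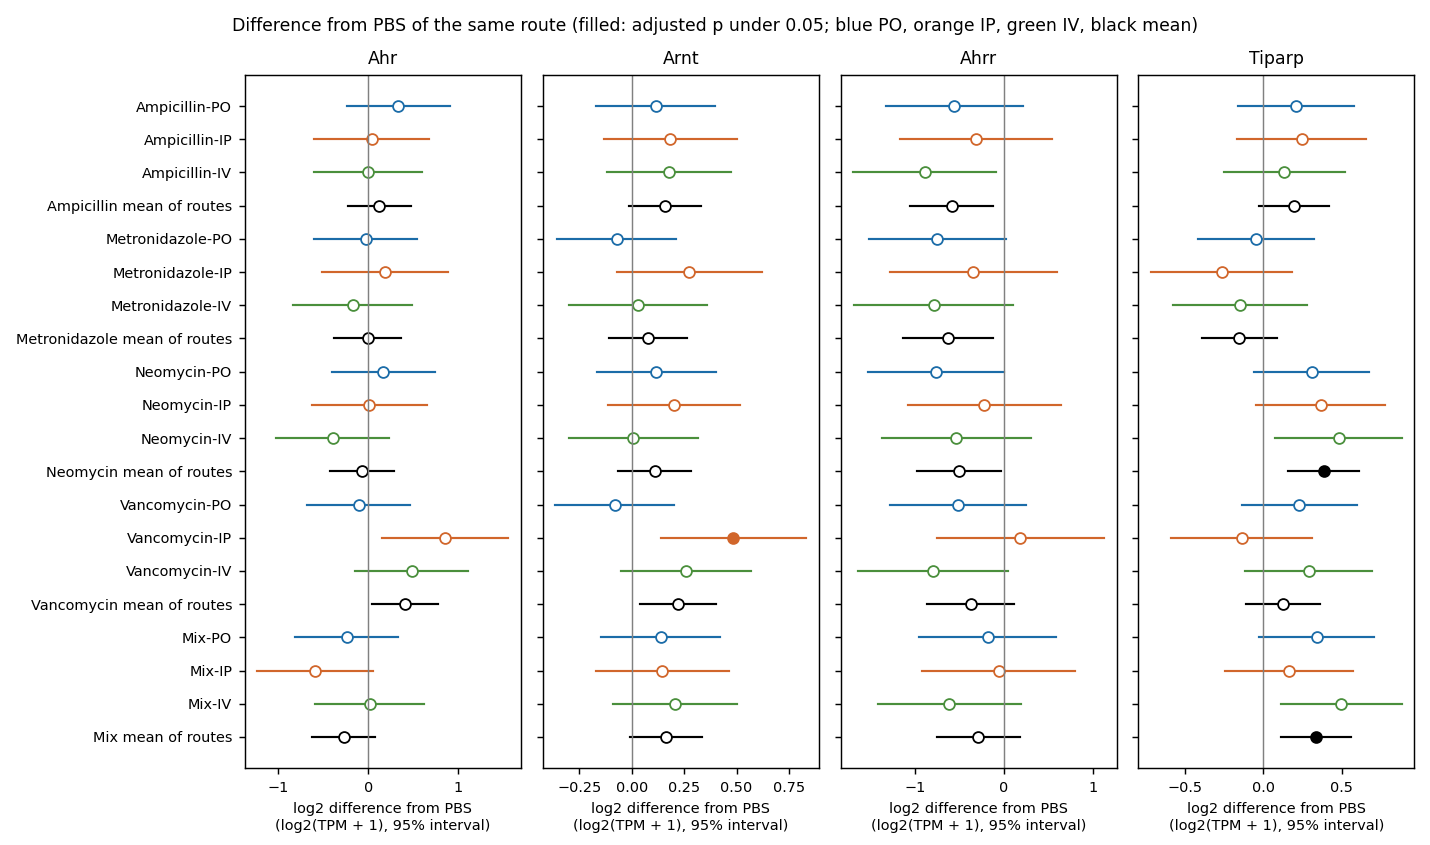
Difference from PBS of the same route on log2(TPM + 1) (horizontal axes, 1 panel a gene, scales differ) for each antibiotic by route and for the mean of the 3 routes (vertical axis); points are limma estimates, lines 95% intervals, and filled points passed an adjusted p under 0.05. The filled points are Arnt in Vancomycin-IP (0.485) and Tiparp for neomycin (0.386) and the mix (0.33) over routes, and the Ahrr points lie left of 0 in 14 of 15 comparisons by route.

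Ahr, the receptor, did not pass the limma test against PBS in any of 15 comparisons by route or 5 over routes, with 1 of each (vancomycin) at an unadjusted p under 0.05. Its group means ran from 11.59 TPM in Mix-IP to 32.39 in Vancomycin-IP and 30.72 in Vancomycin-IV, and from Neomycin-IV (15.79) to Ampicillin-PO (24.14) each group differed from its neighbour in that order by less than its own SD. In Vancomycin-IP the 4 libraries held 39.45, 40.97, 25.95 and 23.18 TPM, and in PBS-IP 18.62, 17.46, 14.12 and 17.93 TPM. All 4 Vancomycin-IP libraries were above every PBS-IP library, as were those of 22.9% of tested genes in this comparison. The log2 difference was 0.85 (SE 0.352, limma adjusted p = 0.0707). Vancomycin-IV libraries split, with 17.97 and 17.52 TPM in 2 of them and 43.6, 35.94 and 38.54 in the other 3. PBS-IV was as wide, at 23.98, 17.32, 13.16, 45.96 and 13.09 TPM, and the difference of 0.48 (SE 0.315) had a limma adjusted p of 0.515. By mouth Ahr with vancomycin stood at 17.5 ± 4.63 TPM (SD, n = 6) against 19 ± 5.47 in PBS-PO (n = 6). An F test of equal vancomycin effects over routes did not pass (limma adjusted p = 0.632), so the routes were not shown to differ. The 20 F tests of the 4 genes gave 0 calls and 1 unadjusted p under 0.05 (Arnt, vancomycin), where 0.0878% of tested genes were called for neomycin and 0% for each other antibiotic.

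The lowest receptor levels were in mice that got the mix into the peritoneum. The 6 Mix-IP libraries held 18.23, 5.98, 10.22, 9.49, 9.86 and 15.77 TPM, and the 20 libraries of single antibiotics given IP ran from 10.3 through a median of 18.78 to 40.97. Each Mix-IP library lay below that median and 4 of 6 lay below the lowest single-antibiotic library. Set against the average of the 4 single antibiotics, the log2 level of Ahr fell by 0.86 (SE 0.233, adjusted p = 0.0343 with limma), and 3.34% of tested genes were called in this comparison. In the 3 comparisons of the mix with single antibiotics this was the only call among 12 pairs, where 1.66% of all pairs were called, with 1.64% of tested genes in Mix-PO and 0.00585% in Mix-IV. Against PBS-IP the same libraries differed by -0.59 (SE 0.321, limma adjusted p = 0.390).

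Stromal genes moved with this difference. Of 12 smooth muscle genes, all had a negative difference between Mix-IP and the single antibiotics and 1 fell, with a median of -1.35 on the log2 scale against -0.12 over all tested genes. Of 7 fibroblast genes 6 fell, with a median of -1.28, and of 5 posterior Hox genes none passed, with a median of -1.61. The summed smooth muscle level was 4858 to 52400 TPM in Mix-IP (median 6635) and 4867 to 76540 TPM in the single antibiotics (median 17200), and that of fibroblast genes 251.4 to 2301 TPM (median 539.5) against 533.1 to 4073 TPM (median 1177). With the smooth muscle score and a score of 5 posterior Hox genes as covariates, the Ahr difference was -0.31 (limma adjusted p = 0.380). The call was also lost without any 1 of Mix-IP replicates 2, 3, 4 and 5 or Metronidazole-IP replicate 3, and over the 26 single omissions the difference was nowhere closer to 0 than -0.71.

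Arnt, the partner of the receptor and also of the hypoxia-inducible factors, had the narrowest span of log2 differences from PBS by route among the 4 tested genes. Group means ran only from 31.3 TPM in PBS-IP to 44.58 TPM in Vancomycin-IP, and most neighbours in that order differed by less than their SD. The difference from PBS was positive in 13 of 15 comparisons by route, in which the 5 antibiotic groups of a route share their PBS libraries, and it lay between -0.08 and 0.485. Averaged over routes it was 0.22 with vancomycin (limma adjusted p = 0.0609) and 0.16 with ampicillin and with the mix. With neomycin it was 0.11 and with metronidazole 0.08, and none of these was called. In Vancomycin-IP the libraries held 43.51, 44.5, 54.35 and 35.95 TPM, and in PBS-IP 34.65, 32.01, 29.73 and 28.81 TPM. The groups did not overlap, and Arnt rose by 0.485 (SE 0.174, limma adjusted p = 0.0416). In this comparison 19% of tested genes were called, so a call here is common.

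Smooth muscle genes rose in the same libraries: 11 of 12 were called higher, with a median of 2.16 on the log2 scale against 0.11 over all tested genes. Their summed level was 45560 to 76540 TPM in Vancomycin-IP and 8747 to 16210 TPM in PBS-IP, with no overlap. Fibroblast genes rose in 4 of 7 cases and goblet cell genes fell in 4 of 8. With both scores as covariates the difference of Arnt was 0.16 (limma adjusted p = 0.823) and that of Ahr was 0.08 (adjusted p = 0.966). The Arnt call held in 1 of 8 single omissions, that of Vancomycin-IP replicate 4, and was lost without any 1 of the other 7 libraries, with differences from 0.387 to 0.58. Appended columns hold 3 of the 4 Vancomycin-IP and 2 of the 4 PBS-IP libraries, and without them 1 library stands against 2, with a difference of 0.376 (limma adjusted p = 0.469) whose error assumes that the lone library varies like the other groups.

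Ahrr, the repressor and a target of the receptor, was highest in PBS-IV at 3.83 ± 1.57 TPM (SD, n = 5) and PBS-PO at 3.42 ± 1.71 (n = 6). Its level in PBS-IP was 1.86 ± 1.33 TPM (n = 4), and the lowest group mean was 1.14 ± 0.618 in Metronidazole-IP (n = 4). Of 15 comparisons by route 14 were negative, but groups of a route share their PBS libraries and none passed the test. By drug, PBS libraries ran from 0.539 through a median of 3.00 to 6.58 TPM, ampicillin libraries from 0.515 through 1.01 to 8, and neomycin libraries from 0.512 through 1.61 to 5.7. Below the PBS median lay 16 of 18 ampicillin, 12 of 14 metronidazole, 16 of 17 neomycin, 11 of 15 vancomycin and 13 of 18 mix libraries. These groups all overlap PBS widely.

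The average difference of Ahrr over routes was -0.59 with ampicillin (SE 0.235, limma adjusted p = 0.104) and -0.63 with metronidazole (SE 0.252, adjusted p = 0.429). It was -0.51 with neomycin, -0.38 with vancomycin and -0.29 with the mix, with limma adjusted p-values of 0.369, 0.240 and 0.520. Before adjustment, 3 of these 5 differences and 1 of the 15 by route had a p under 0.05. PBS-IP itself differed from PBS-PO by -0.65 (SE 0.431, limma adjusted p = 1.00), a size like that of the drug differences. None of 8 pairs was called between the PBS routes, where 0% of all tested genes were; 0 of the 8 also had an unadjusted p under 0.05, against 1.57% of tested genes for PBS-IP and 2.07% for PBS-IV.

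Tiparp, the ADP-ribosyltransferase that the receptor induces and that acts back on it, rose with neomycin and with the mix. Over the 3 routes it averaged 16.92 TPM with neomycin and 16.15 TPM with the mix against 12.38 TPM in PBS. The log2 difference was 0.386 for neomycin (SE 0.114, limma adjusted p = 0.0479) and 0.33 for the mix (SE 0.112, limma adjusted p = 0.0493). The share of tested genes called was 2.34% for neomycin and 7.96% for the mix. Neomycin libraries ran from 9.71 through a median of 16.13 to 24.75 TPM, mix libraries from 11.43 through 14.75 to 26.66, and PBS libraries from 9.23 through 11.69 to 16.53. Above the PBS median lay 14 of 17 neomycin and 16 of 18 mix libraries, and above the highest PBS library 8 and 5, so the groups overlap.

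By route Tiparp passed in no comparison, with 2 of 15 at an unadjusted p under 0.05. In Neomycin-IV the libraries held 16.13, 11.6, 13.44, 23.3 and 24.75 TPM against 11.38, 11.98, 13.11, 9.75 and 14.16 in PBS-IV, a difference of 0.48 (SE 0.202, limma adjusted p = 0.578). Neomycin-IP stood at 18.04 ± 3.46 TPM (SD, n = 6) and Neomycin-PO at 14.87 ± 4.64 (n = 6), with differences of 0.37 and 0.31. For the mix they were 0.498 by vein, 0.165 into the peritoneum and 0.340 by mouth. The F test of equal effects over routes did not pass for either (limma adjusted p = 0.999 for neomycin and 1.00 for the mix).

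With metronidazole Tiparp stood at 10.83 ± 1.69 TPM by vein (SD, n = 4), 11.33 ± 3.23 by mouth (n = 6) and 11.49 ± 3.87 into the peritoneum (n = 4). The difference from PBS over routes was -0.15 (SE 0.121, limma adjusted p = 0.618). Ampicillin gave 0.196 (SE 0.112, adjusted p = 0.276) and vancomycin 0.128 (SE 0.118, adjusted p = 0.414).

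Both Tiparp calls lie close to the threshold. The neomycin call held in 9 of 32 single omissions (Neomycin-IP replicates 2 and 5, Neomycin-IV replicates 2 and 3, Neomycin-PO replicates 1 and 2, PBS-IP replicate 3, PBS-IV replicate 5 and PBS-PO replicate 4) and was lost without any 1 of the other 23 libraries, with differences from 0.343 to 0.429. The mix call held in 9 of 33 (Mix-IP replicate 4, Mix-IV replicates 3 and 4, Mix-PO replicates 4 and 5, PBS-IP replicate 3, PBS-IV replicate 3 and PBS-PO replicates 2 and 4) and was lost without any 1 of the other 24, from 0.295 to 0.372. Both calls were lost with a pseudocount of 0.1 (adjusted p = 0.0525 for neomycin and 0.0529 for the mix) and with quantile normalization (0.194 and 0.103), the neomycin call with the compared groups alone (0.116), and the mix call with no filter on low values (0.053). With the muscle and Hox scores as covariates both held, at 0.377 for neomycin (limma adjusted p = 0.0209) and 0.383 for the mix (adjusted p = 0.0165). Tiparp followed these scores only weakly within groups (r = -0.19 and 0.187), so such covariates could change its differences little. The surface colonocyte score, which Tiparp did follow (r = 0.564), was not used as a covariate. Without the 12 appended libraries, 4 of them PBS, both were lost, at 0.422 (adjusted p = 0.109) and 0.371 (adjusted p = 0.0888).

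Other features moved with neomycin. All 13 protein genes of the mitochondrial genome fell, with a median of -0.86 on the log2 scale, and their summed level was 35220 to 118300 TPM (median 60170) in neomycin libraries against 67690 to 256800 TPM (median 109100) in PBS. No surface colonocyte gene of 8 passed, with a median of 0.403 against 0.04 over all tested genes, and their sum was 3787 to 24110 TPM against 698.1 to 18060. With the mix none of the 13 mitochondrial genes passed, and the 5 posterior Hox genes had a median of -1.22 with none called. The part of these genes in the Tiparp results was not tested. In the annotation of GRCm38, Tiparp overlaps a gene on the opposite strand, as does Ahr, and whether the counting used strand is not stated, so reads of the partners cannot be told apart.

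Other members of the PARP family, relatives of Tiparp of which several are interferon-inducible, rose as well. With neomycin over routes 5 of 7 rose and none fell, with a median of 0.63, where 2.34% of all tested genes were called. Zc3hav1, the antiviral zinc finger protein ZAP, rose by 0.71 to 113.1 TPM from 67.15 (limma adjusted p = 7.06e-06), with 14 of 17 libraries above every PBS library. Parp9 rose by 0.93 (101.9 against 48.96 TPM), Parp14 by 0.78 and Parp11 by 0.60. All 4 calls held in each of 32 single omissions and without the appended libraries. With the mix against PBS over routes Zc3hav1 alone was called, at 0.35 (limma adjusted p = 0.0379, lost in 13 of 33 single omissions). Uncalled differences there were 0.37 for Parp9, 0.29 for Parp14 and 0.23 for Parp11. Against single antibiotics IP, Mix-IP was higher in Parp9 by 0.72 and in Parp14 by 0.66 (limma adjusted p = 0.044 and 0.036). Those calls held in 12 and 19 of 26 single omissions, where 3.34% of tested genes were called. With vancomycin 2 of 7 fell, where 7.4% of all tested genes fell. By route, Zc3hav1, Parp9 and Parp14 passed in Neomycin-IP (0.87, 1.16 and 1.14) and Neomycin-IV (1.00, 1.61 and 1.31). Parp11 passed in Neomycin-IP (0.91). The Neomycin-IV calls each held in 10 of 10 single omissions. Those in Neomycin-IP held in 6 of 10 for Zc3hav1, 2 of 10 for Parp9, 8 of 10 for Parp14 and 4 of 10 for Parp11. The share of tested genes called was 0.603% in Neomycin-IP and 0.544% in Neomycin-IV. None of these 4 genes passed in Neomycin-PO, where the share was 0.0176%, so a rise by mouth was not shown.

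Cyp1b1, a ligand-oxidising target, could not be tested at the chosen level. Its highest group mean was in Metronidazole-IV, where the 4 libraries spanned 0.368 to 0.665 TPM, and its 4 zero values were in Neomycin-IP (3 of 6 libraries) and Mix-IP (1 of 6). With no filter on low values none of its 25 comparisons passed limma, the lowest adjusted p being 0.202 (Vancomycin-IP), and 1 of the 25 was under 0.05 before adjustment (Ampicillin-PO). How large a difference could be seen at this level was not measured.

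Among other genes of xenobiotic metabolism long known as receptor targets, 7 of 9 were tested and those that passed fell. With ampicillin over routes 2 of 7 fell, where 2.75% of tested genes fell, and with vancomycin 3 of 7, where 7.4% did. Goblet cell genes moved with ampicillin too: 2 of 8 fell, and their summed level was 383.3 to 16490 TPM (median 5122) against 627.5 to 24510 TPM (median 12680) in PBS. Smooth muscle genes summed to 4867 to 83190 TPM (median 27660) with ampicillin against 7503 to 53740 TPM (median 15590), with none of 12 called. The part of the goblet cell genes in the falls was not tested. Nqo1, a quinone reductase also driven by other stress factors, was 11.74 TPM with ampicillin and 11.88 with vancomycin against 24.43 in PBS, with log2 differences of -1.01 (limma adjusted p = 0.0237) and -0.93 (adjusted p = 0.0238). The ampicillin call was lost without Ampicillin-IV replicate 3 (or PBS-IV replicate 3), and the vancomycin call without PBS-IV replicate 3, Vancomycin-IP replicate 2 or Vancomycin-IV replicate 3. Gsta3, a glutathione transferase, fell by 0.99 with ampicillin (5.843 against 12.27 TPM, limma adjusted p = 0.0158), a call that held in all 33 single omissions, and by 0.78 with vancomycin (adjusted p = 0.0408). Gsta1 fell by 1.24 with vancomycin (adjusted p = 0.0382). The vancomycin calls of Gsta3 and Gsta1 were lost in 17 and 14 of 30 single omissions.

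Smooth muscle genes moved with vancomycin in these and the next lists: over routes all 12 rose, with a median of 1.2, and their summed level was 4008 to 76540 TPM (median 54330) against 7503 to 53740 TPM (median 15590) in PBS. With the scores as covariates 2 of 15 vancomycin calls on the listed genes named here held (Hif3a and P4ha1), 5 of 6 ampicillin calls, and all 4 neomycin and 3 mix calls. Without the appended libraries, which leave 7 vancomycin and 11 PBS libraries, 1 of 15, 2 of 6, 4 of 4 and 0 of 3 held: P4ha1 with vancomycin, Gsta3 and Ido1 with ampicillin, and the PARP genes with neomycin. Among the xenobiotic genes the covariates kept the 2 ampicillin calls (Nqo1 -0.77, Gsta3 -0.74) and ended the 3 vancomycin calls (Nqo1 -0.42, Gsta3 -0.38, Gsta1 -0.38).

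HSP90, the chaperone that holds the receptor in the cytoplasm, was higher with vancomycin, where 26% of all tested genes were called. Hsp90aa1, the inducible form, stood at 681.2 against 429.4 TPM, a difference of 0.68 (limma adjusted p = 0.0125), and the call held in all 30 single omissions. Hsp90ab1, the constitutive form, rose by 0.30 (adjusted p = 0.0459), a call lost in 19 of 30 single omissions. Neither passed with another antibiotic. With metronidazole the differences were 0.60 for Hsp90aa1 (adjusted p = 0.294) and 0.43 for Hsp90ab1 (adjusted p = 0.0901), the second of them with 7 of 14 libraries above every PBS library, so the response was not shown to be particular to vancomycin. With the scores as covariates both vancomycin calls were lost, at 0.20 and 0.14.

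Host enzymes of tryptophan breakdown, which make or remove receptor ligands, held the largest called fall over routes among these lists. Ido1, which opens the tryptophan ring toward kynurenine, ran from 0.0556 to 1.67 TPM in 18 ampicillin libraries and from 0.213 to 11.6 in 15 PBS libraries. All 18 ampicillin libraries lay below the PBS median and 4 below the lowest PBS library. The log2 difference over routes was -1.58 with ampicillin (SE 0.310, limma adjusted p = 0.000441), -1.23 with vancomycin (SE 0.326, adjusted p = 0.00512) and -1.20 with the mix (SE 0.310, adjusted p = 0.00950). Each of these calls held in every single omission, and with the scores as covariates the ampicillin (-1.25) and mix (-1.20) calls held and the vancomycin call (-0.61) did not. Without the appended libraries the ampicillin difference was -1.40 (adjusted p = 0.0212) and the other 2 were lost. With neomycin Ido1 ran from 0.111 to 32.3 TPM and the difference was not called.

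Of the 11 tested enzymes, 1 fell with ampicillin, 1 with the mix and 3 with vancomycin, none rose, and with neomycin and metronidazole none passed. The share called is near that of all tested genes called in either direction (7.88% with ampicillin, 7.96% with the mix and 26% with vancomycin). Falls alone made up 2.75% of tested genes with ampicillin and 7.4% with vancomycin, and the 3 vancomycin calls here were all falls. Whether the falls in this list exceed those shares was not tested. Kyat1 and Kyat3, transaminases that turn kynurenine into kynurenic acid, a receptor ligand, fell by 1.05 and 0.43 with vancomycin (limma adjusted p = 0.0161 and 0.0133), and both calls were lost with the scores as covariates. Kyat1 differed by -0.83 with metronidazole (limma adjusted p = 0.429) and -0.83 with the mix (adjusted p = 0.0869). It was -0.55 with ampicillin and -0.16 with neomycin, both uncalled, so its fall was not shown to be particular to vancomycin. Kyat1 in PBS libraries ran from 7.77 to 172 TPM.

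**Figure D3:**
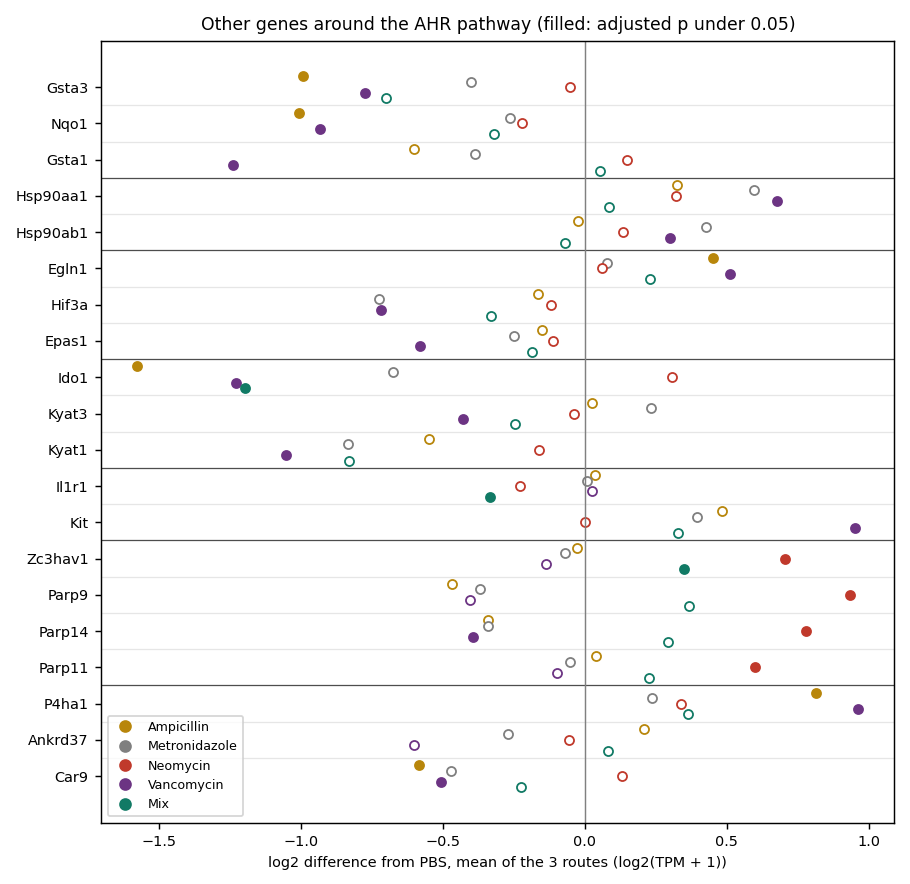
Difference from PBS averaged over the 3 routes on log2(TPM + 1) (horizontal axis) for 20 genes around the receptor (vertical axis). Dark lines group them into xenobiotic targets, HSP90, ARNT relatives and HIF regulators, tryptophan enzymes, lymphoid genes, PARP family genes and hypoxia targets. Colours are antibiotics and filled points passed an adjusted p under 0.05 with limma. Ido1 lies farthest left, at -1.58 with ampicillin, and the PARP genes lie right of 0 with neomycin.

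Among relatives and regulators of the ARNT partners, Egln1, the oxygen sensor that marks hypoxia-inducible factors for decay, rose by 0.45 with ampicillin (114.1 against 83.37 TPM, limma adjusted p = 0.0152) and by 0.51 with vancomycin (adjusted p = 0.00420). Hif3a fell by 0.72 with vancomycin (adjusted p = 0.0187), a call lost without PBS-IP replicate 1; with metronidazole the difference was of like size, -0.73 (adjusted p = 0.243), with 13 of 14 libraries below the PBS median. Epas1, which encodes HIF-2 alpha, fell by 0.58 (adjusted p = 0.0371, lost in 15 of 30 single omissions). In all, 1 of 7 genes rose with ampicillin, and 1 rose and 2 fell with vancomycin, against 7.88% and 26% of all tested genes called. Of 10 hypoxia targets 1 rose and 1 fell with ampicillin and likewise with vancomycin, to be read against those same shares of all genes. P4ha1, a collagen prolyl hydroxylase, rose by 0.81 and 0.96 (adjusted p = 0.00532 and 0.000923), and Car9, a carbonic anhydrase, fell by 0.59 and 0.51 (adjusted p = 0.0371 and 0.0475, lost in 10 of 33 and 19 of 30 single omissions). Ankrd37 fell by 1.56 in Vancomycin-IP (adjusted p = 0.0253), lost without PBS-IP replicate 1 or 3 or Vancomycin-IP replicate 1 or 3.

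Among 10 genes of lymphoid cells that depend on the receptor, 8 were analysed here and 5 of these reached the level for testing; 1 rose with vancomycin and 1 fell with the mix, where 26% and 7.96% of all tested genes were called. Kit, the stem cell factor receptor, which interstitial cells of the muscle layer also carry, rose by 0.95 with vancomycin (135.2 against 66.19 TPM, limma adjusted p = 0.0201), and with the scores as covariates the difference was 0.10 (adjusted p = 0.781). Il1r1, the interleukin 1 receptor, fell by 0.33 with the mix (15.37 against 19.56 TPM, limma adjusted p = 0.0139). With neomycin the Il1r1 difference was -0.23 (limma adjusted p = 0.237). Below every PBS library lay 7 of 18 mix and 7 of 17 neomycin libraries, so the fall was not shown to be particular to the mix.

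Between libraries of a group, the receptor and its partner varied together. After group means were subtracted, Ahr and Arnt had Pearson r = 0.672 and Spearman rho = 0.659 over 97 libraries (permutation p = 1e-05 for each, the smallest that 100000 draws can give, adjusted p = 6e-05 over 6 pairs). Without the 2 libraries farthest from the median of Ahr, r was 0.659. In the 85 libraries with ordered columns r was 0.697, and in the 12 appended ones 0.441. The other 5 pairs had r between -0.11 and 0.135, with adjusted permutation p-values of 0.596 or more. With the muscle and Hox scores regressed out, r of Ahr and Arnt was 0.428 (permutation p = 8e-05, adjusted p = 0.00048), with 0.506 in the ordered and 0.0445 in the appended libraries.

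Both followed smooth muscle and Tiparp followed the surface epithelium. Of 16 relations with 4 tissue scores 5 passed. The smooth muscle score had r = 0.765 (rho = 0.785) with Ahr and r = 0.639 (rho = 0.61) with Arnt, each with permutation p = 1e-05 and adjusted p = 5e-05, and r without the 2 farthest libraries was 0.775 and 0.614. The surface colonocyte score had r = 0.564 (rho = 0.56, adjusted permutation p = 5e-05) with Tiparp, 0.594 without the 2 farthest libraries, and r = -0.45 (rho = -0.395, adjusted p = 0.00048) with Ahr and -0.407 (rho = -0.415, adjusted p = 0.00032) with Arnt, -0.352 and -0.389 without them. In the 85 ordered libraries these 5 values were 0.798, 0.611, 0.581, -0.418 and -0.346, and in the 12 appended ones 0.506, 0.762, 0.376, -0.551 and -0.741. Ahrr passed with none of the 4 scores (r from -0.159 to 0.161).

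**Figure D4:**
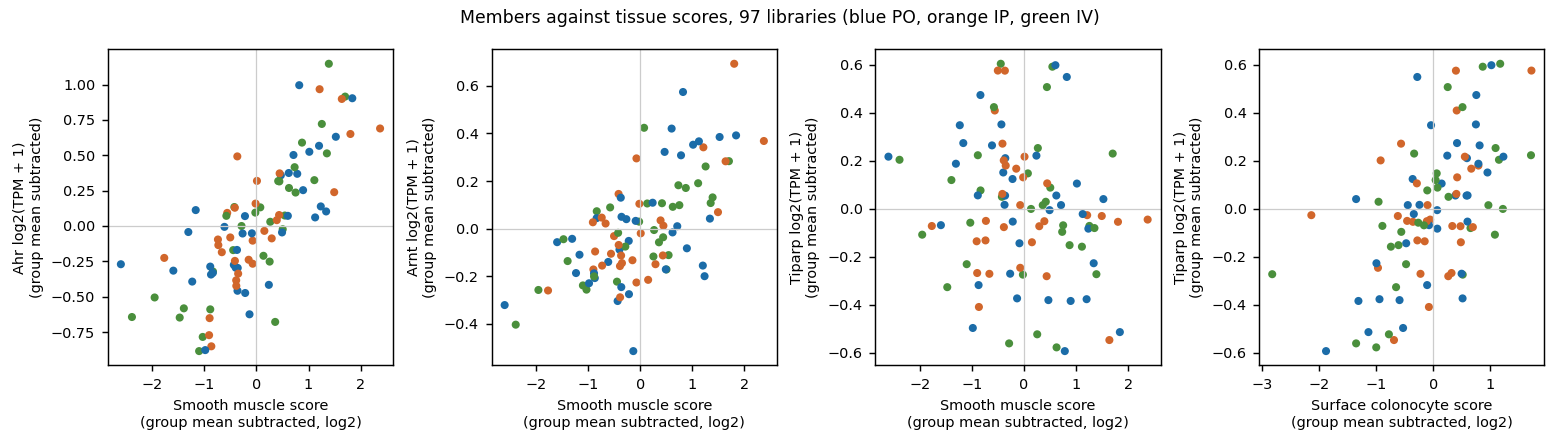
Each library's log2(TPM + 1) of Ahr, Arnt and Tiparp (vertical axes) against a tissue score, the mean log2(TPM + 1) of its marker genes (horizontal axes), with group means subtracted from both; 97 points a panel, coloured by route. Ahr (r = 0.765) and Arnt (r = 0.639) rise with the smooth muscle score, Tiparp (r = -0.19) has no such slope, and Tiparp rises with the surface colonocyte score (r = 0.564).

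The genes whose levels were most like each one over the 97 libraries are given as a description, since all genes of a library share its tissue makeup. For Ahr they were Sgtb, Tmed8 and Twsg1 (Pearson r = 0.894, 0.887 and 0.886). For Arnt they included Dcaf8 and Anks1 (r = 0.815 and 0.81), and for Tiparp they were Smcr8, Garem1 and Tor1aip2 (r = 0.741, 0.735 and 0.714). Ahrr had no close match, with Rint1 the nearest at r = 0.332.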

How the data were processed

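Values were the TPM deposited by the authors, 1 column per library. The tools behind them, per the submitters' processing notes, were Trim Galore 0.6.2, cutadapt 3.5 and Salmon, whose version is not given, with the build GRCm39; per the labels' protocols, libraries were poly(A)-selected and single-end. The annotation release is not given in the sources used here. TPM keeps no depth. Since TPM is a share of a library's transcripts, a gene that takes a large share lowers the rest.

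Analysis used log2(TPM + 1) with no further scaling, and genes with a TPM of 1 or more in at least 4 libraries. A linear model with 1 mean for each of 18 groups was fitted to all 97 libraries with limma 3.58.1 under R 4.3.3, using a trended and robust prior. Contrasts were each antibiotic with PBS of its route, the mean of the 3 routes, PBS routes, and the mix with single antibiotics, plus F tests of equal effects over routes. Calls used a Benjamini-Hochberg adjusted p under 0.05. Named genes were the members and, from each pathway list, up to 4 genes called against PBS, by smallest adjusted p. Results for some genes that this rule names are not reported here. The members and lists were chosen with earlier results of these data known. Correlations were tested with 100000 permutations of libraries within groups, two-sided.

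On simulated data with 17083 genes, the fit recovered 58% of log2 changes of 1 and 8% of 0.5 for Neomycin-PO, with 2 false calls. For neomycin over routes it recovered 80% and 38%, with 4 false calls. These rates describe the simulation only. How well they hold for these libraries, where many genes shift together with tissue makeup, was not tested. The changed genes were drawn only from those with a mean log2(TPM + 1) above 2, so the rates do not cover weakly expressed genes such as Ahrr. Alternatives were pseudocounts of 10 and 0.1, no filter, quantile normalization, array weights, a replicate block, score covariates, the compared groups alone, and omission of the 12 appended libraries or of each library in turn.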

Additional observations from a re-analysis of the deposited data

Results flagged for a closer look

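Of 90 sets of 1 gene in 1 group, 7 held a library far from the others by Dixon's test; chance gives about 1 in 20. Tiparp stood at 23.3 TPM in Mix-IP replicate 6 and at 22.7 TPM in Mix-PO replicate 6. Arnt stood at 58.2 TPM in Ampicillin-IP replicate 4 and at 45 TPM in Mix-IP replicate 1. Ahrr stood at 6.58 TPM in PBS-IV replicate 3. Cyp1b1 stood at 0.622 TPM in Mix-IV replicate 5 and at 0.805 TPM in Neomycin-PO replicate 1. All 7 were on the high side.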

How the results depend on the processing

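Every call on the 4 tested genes depended on the settings. The same-route count, 1 in the report, was 0 with quantile normalization, with score covariates and without the appended libraries, 7 with array weights, and 0 to 2 with single omissions; with the compared groups alone it was also 1, but from Ahr in Vancomycin-IP (adjusted p = 0.0159), and Arnt was lost (0.0515). The count over routes, 2 in the report, was 0 with a pseudocount of 0.1, with quantile normalization, with the replicate block and without the appended libraries, 1 with no filter and with the compared groups alone, 5 with array weights, and 0 to 4 with single omissions. The count for the mix against single antibiotics, 1 in the report, was 0 with a pseudocount of 10, quantile normalization, score covariates and the compared groups alone, 2 with array weights, and 0 to 1 with single omissions. For unequal effects over routes, 0 in the report, array weights gave 1; single omissions gave 0, as they did between PBS routes. The cause was not tested. Differences with no call that changed sign, 16 of 100 at most (array weights), are counted as unchanged. With the replicate block Tiparp gave 0.373 for neomycin (limma adjusted p = 0.0558) and 0.312 for the mix (0.0615). Numbers are shared by label only: in 0 of 15 comparisons did every same-numbered pair correlate above 0.1 (r from -0.696 to 0.837). Quantile normalization shifted the median of all genes by -0.193 in Vancomycin-IP and 0.143 in Mix-IP against single antibiotics.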
